A study of Mus musculus with 6 samples.

Results

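The comparison is 2 days of fasting against normal feeding in a mouse B-cell acute lymphoblastic leukaemia (B-ALL), a cancer of B-lymphocyte precursors. Its members are the 2 libraries titled as 2-day fasting and the 2 titled as control, 4 of the 6 samples of the series, and the 37732 genes that both deposited gene tables list. Of these genes 14236 passed a filter on low counts and were compared. C57BL/6 mice had been transplanted with lineage-negative fetal liver cells that expressed N-Myc and a GFP reporter, so every group carries the N-Myc transgene. When about 60% of peripheral blood cells were GFP-positive, mice were fasted for 1 or 2 days or stayed on normal feed, and GFP+B220+ cells were sorted from bone marrow. The number of mice and of separate leukaemias behind each group is not stated, and the age of the mice is not given in the labels. The series' design text counts 3 samples, each in duplicate, so each group stands here as 1 sample with 2 runs. Differences between fasting and feeding, between mice and between leukaemia clones therefore cannot be told apart, and no p-value is given.

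A B-cell precursor first opens its heavy-chain locus with the RAG recombinase, pairs the new heavy chain with the surrogate light chain made by Igll1 and Vpreb1, and signals through this pre-B-cell receptor before it makes a light chain. Fasting lowers insulin, IGF1 and leptin in the blood and raises glucocorticoids and fatty acids, to which B-cell precursors respond through receptors of their own. The study asked how fasting changes the leukaemia cells, and the leptin receptor and the differentiation factor Prdm1 are known from that work, so both were looked up whatever their level.

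Values are CPM, gene reads scaled to a fixed library total, scaled between libraries by the trimmed mean of M-values. A fold is 2-day over control on CPM with 0.1 added, and a gene was called only when the mean and both like-numbered pairs of runs passed the fold. The 4 libraries held 23412288 and 43785874 gene reads in control and 36627712 and 19368326 after 2 days. Runs of 1 group differed little. The interquartile range of the log2 ratio between runs was 0.10 in both groups, over 11746 genes of at least 1 CPM, against 0.49 for the 2-day mean over the control mean. On unique reads the median squared difference between runs was 1.10 times that of read sampling in control and 1.13 times after 2 days. Between the groups it was 17.6 to 18.5 times. On total reads, which the folds use, it was 1.36 and 1.43 times between runs and 20.1 to 20.9 times between the groups. Reads over Mycn, transgene and endogenous gene together, stood at 2157 and 2194 CPM in control and at 2270 and 2280 CPM after 2 days, and those over Ptprc, which encodes CD45, at 187 and 183 CPM against 187 and 185 CPM. Cd79a, a signalling chain of the B-cell receptor, stood at 794 and 801 CPM against 812 and 804 CPM, and its partner Cd79b at 414 and 422 CPM against 559 and 558 CPM, under 1.5-fold. Of 9 B-lineage markers 0 were at least 1.5-fold lower and 2 were higher (22.2%, against 9.52% of all genes): Blk, a Src-family kinase, and Cd22, an inhibitory co-receptor, with log2 folds of 0.71 and 0.69.

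**Figure D1:**
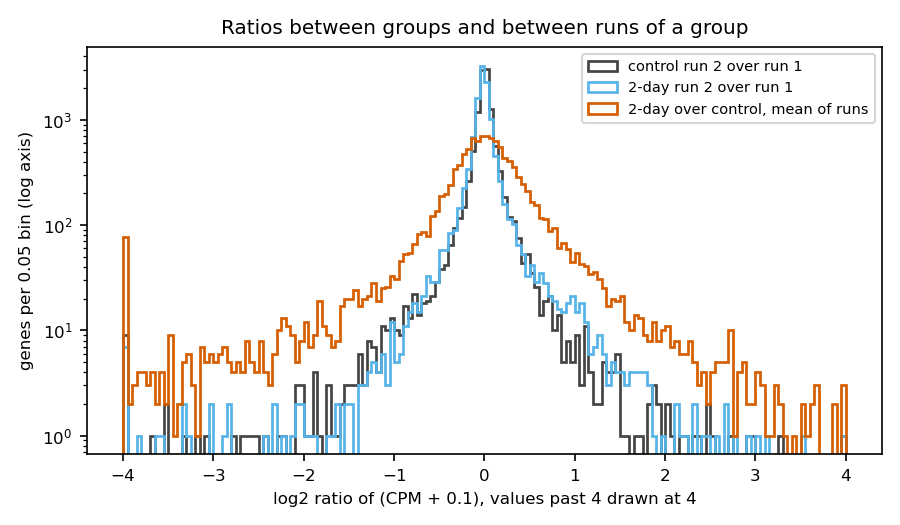
Number of genes (log axis) by log2 ratio of CPM + 0.1, for 11746 genes of at least 1 CPM: 2-day over control (orange) and run 2 over run 1 within control (black) and within 2-day fasted (blue). The between-group curve is wider than both within-group curves and has its longer tail on the lower side; ratios past 4 are drawn at 4.

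Of the 14236 genes, 635 were at least 2-fold higher after 2 days (4.46%) and 813 at least 2-fold lower (5.71%). The tail was uneven. At least 8-fold differences were found in 27 genes on the higher side (0.19%) and in 156 on the lower side (1.1%). In 131 of the 156 genes the 2-day level was under 1 CPM, in 55 it was under 0.1 CPM, and 16 had no read in either fasted run. Of the called genes, 52 of the 635 higher and 46 of the 813 lower stood at 100 CPM or more in the group where they were higher. How many of all genes reach that level was not counted, so no share of abundant genes is given.

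The genes that were lower in the fasted cells included several that mark early B-cell precursors. Dntt, which encodes the polymerase TdT that adds bases at V(D)J joins, stood at 74.8 and 77.0 CPM in control and at 0.297 and 0.105 CPM after 2 days. Its 4951 control reads against 13 fasted reads give a ratio of 328, with a 95% interval for counting error of 192 to 617. Igll1 stood at 57.5 and 59.8 CPM in control and at 1.05 and 1.00 CPM after 2 days. Vpreb1, its partner, stood at 57.9 and 56.5 CPM against 1.38 and 1.16 CPM. In these genes every control run was far above every fasted run. The rule for a call largely requires this, and the runs of a group are not separate samples. Of 11 genes of the surrogate light chain and pre-B-cell receptor, 4 were at least 1.5-fold lower (36.4%) and 0 higher. Among all genes 10.1% were lower and 9.52% higher by that fold. The median log2 fold of that list was −0.28, with members from −5.70 to 0.42. Its summed level was not lower, at 4249 and 4253 CPM in control and 4333 and 4275 CPM after 2 days. The recombinase genes were low already in control, with Rag1 at 3.30 and 4.72 CPM and Rag2 at 6.42 and 4.01 CPM, and had 7 and 6 reads in both fasted runs together. The size of both differences rests on reads that map to more than 1 place: the log2 folds were −4.22 and −4.78 on all reads and −1.04 and −2.87 on unique reads. The 1-day fasted runs, set against the same controls, held Igll1 at 51.2 and 52.9 CPM, Vpreb1 at 46.6 and 49.7 CPM and Dntt at 19.8 and 21.6 CPM.

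The promoters of Igll1, Vpreb1, Rag1 and Dntt are printed because each gene was lower after 2 days. Their 1-day means differed, at 52.0, 48.1, 4.47 and 20.7 CPM against 58.7, 57.2, 4.01 and 75.9 CPM in control. Whether these genes share a regulator was not tested. The sequences are from RefSeq, build GRCm38.p6, and run from 250 bases before to 50 bases after a transcript start. Capitals mark the E-box CANNTG, the letters bound by E proteins such as Tcf3, searched on both strands. A promoter was matched by symbol and by a start within 2000 bases of the deposited gene's start for 8955 of the 14236 genes. The distance was 0 bases for Igll1 and Dntt, 31 for Rag1 and 1588 for Vpreb1. The Vpreb1 window thus lies within the deposited gene. Of the matched promoters 62.9% held the E-box, so its presence is common. It was held by 62 of 105 promoters of genes at least 8-fold lower (59.0%) and by 278 of 411 of genes lower at 2-fold but not at 8-fold (67.6%). Of genes at least 2-fold higher, 274 of 381 promoters held it (71.9%).
Igll1 promoter, chr16:16863936-16864235, minus strand: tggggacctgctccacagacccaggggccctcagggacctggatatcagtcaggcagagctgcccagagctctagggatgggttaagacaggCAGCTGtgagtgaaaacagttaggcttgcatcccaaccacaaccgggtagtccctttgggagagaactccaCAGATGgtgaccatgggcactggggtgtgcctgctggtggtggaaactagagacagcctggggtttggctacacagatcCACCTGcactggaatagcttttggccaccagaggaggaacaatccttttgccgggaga
Vpreb1 promoter, chr16:16869206-16869505, minus strand: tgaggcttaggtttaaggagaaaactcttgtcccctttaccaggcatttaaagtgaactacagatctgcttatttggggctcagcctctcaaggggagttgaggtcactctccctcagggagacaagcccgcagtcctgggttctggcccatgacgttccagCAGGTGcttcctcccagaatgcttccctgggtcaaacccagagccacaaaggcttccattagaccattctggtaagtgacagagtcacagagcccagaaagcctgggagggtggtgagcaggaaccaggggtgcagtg
Rag1 promoter, chr2:101649483-101649782, minus strand: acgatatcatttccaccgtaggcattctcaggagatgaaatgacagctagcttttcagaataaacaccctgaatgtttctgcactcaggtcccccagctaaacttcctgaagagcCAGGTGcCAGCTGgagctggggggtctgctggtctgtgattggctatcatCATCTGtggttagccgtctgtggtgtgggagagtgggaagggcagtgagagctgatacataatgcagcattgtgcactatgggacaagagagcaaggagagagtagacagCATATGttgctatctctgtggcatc
Dntt promoter, chr19:41029025-41029324, plus strand: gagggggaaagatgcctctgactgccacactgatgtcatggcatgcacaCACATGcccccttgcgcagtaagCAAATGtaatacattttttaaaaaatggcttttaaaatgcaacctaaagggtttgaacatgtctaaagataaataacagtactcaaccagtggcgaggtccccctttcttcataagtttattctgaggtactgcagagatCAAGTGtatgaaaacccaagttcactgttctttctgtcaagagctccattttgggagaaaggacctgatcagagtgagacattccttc

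The wider B-cell programme moved in part. Of 16 genes of V(D)J recombination and end joining, 5 were at least 1.5-fold lower and 1 higher, where 10.1% of all genes were lower and 9.52% higher by that fold. The median log2 fold of that list was −0.28, against 0.01 over all genes. Xrcc6, which encodes the DNA end-binding protein Ku70, stood at 495 and 483 CPM in control and at 181 and 170 CPM after 2 days. Of 38 B-lineage transcription factors, 10 were lower and 2 higher, with a median of −0.31. Lef1, a partner of beta-catenin that is active in early B precursors, stood at 103 and 100 CPM in control and at 3.16 and 3.52 CPM after 2 days. Erg, an ETS factor, stood at 43.4 and 44.7 CPM against 1.16 and 0.684 CPM. Both had lower values in each fasted run than in any control run, which the rule for a call largely requires. Pax5, the factor that holds B identity, differed little, at 125 and 123 CPM against 110 and 108 CPM. Zbtb32, a repressor known from activated B cells, was among the few higher, at 3.51 and 4.01 CPM against 28.3 and 29.1 CPM. Among 29 B-cell stage surface antigens, 11 were higher and 9 lower. Enpep, the early precursor antigen BP-1, stood at 73.9 and 76.3 CPM in control and at 0.216 and 0.579 CPM after 2 days. Il7r, the receptor for interleukin 7, stood at 19.8 and 18 CPM against 9.73 and 9.52 CPM, and Kit at 2.39 and 2.22 CPM against 0.730 and 0.789 CPM. On the higher side, Cd38 stood at 6.55 and 7.01 CPM in control and at 22.1 CPM in both fasted runs. Of 8 immunoglobulin constant-region and J-chain genes 5 were higher and 0 lower, with a median log2 fold of 1.10. Igha, the heavy chain of IgA, stood at 27.2 and 24.8 CPM in control, at 11.2 and 12.6 CPM after 1 day and at 57.7 and 59.6 CPM after 2 days. Genes of a plasma cell programme did not move as 1 list: of 18, 6 were higher and 3 lower. Sdc1, the plasma cell antigen CD138, was lower (log2 fold −1.76), and Txndc5, a folding enzyme of the endoplasmic reticulum, was higher (1.40).

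**Figure D2:**
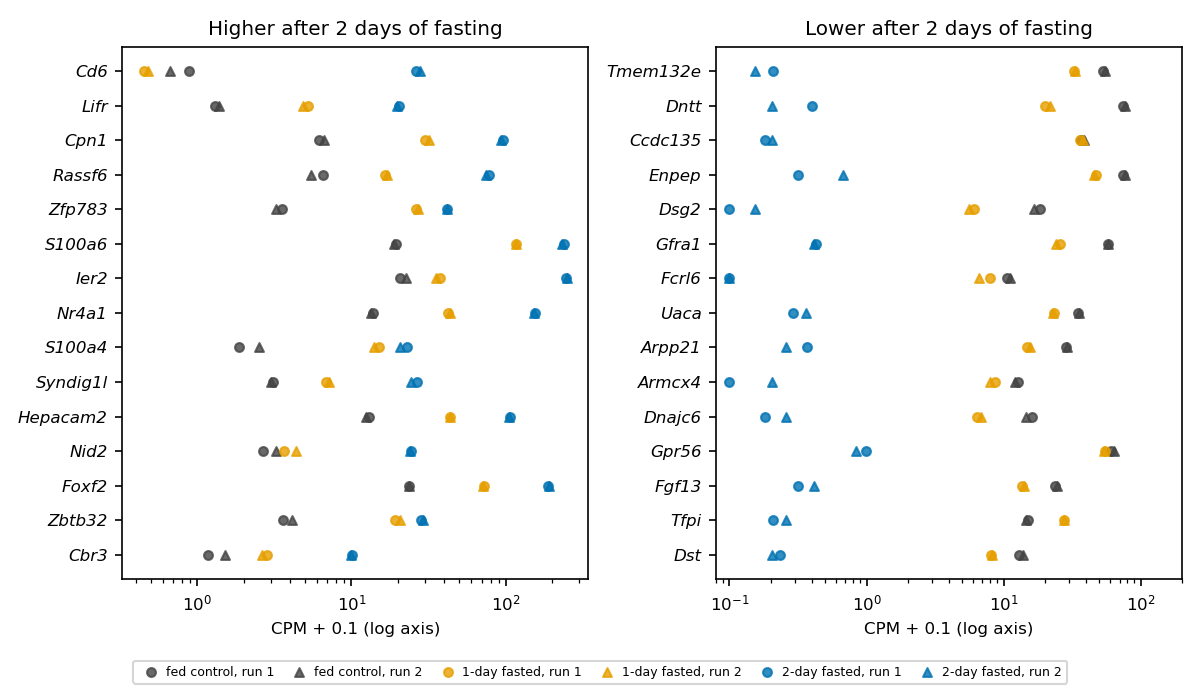
CPM + 0.1 (log axis) in each of the 6 libraries for the 15 genes with the largest higher (left) and lower (right) log2 fold among genes of at least 5 CPM. Circles are run 1 and triangles run 2. The 1-day fasted values are drawn for reference and share the control libraries.

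The 15 genes with the largest log2 fold on the lower side, chosen among named genes with a mean of at least 5 CPM and at least 50% of their reads in exons in the group where they were higher, included Dntt, Enpep and Fcrl6, an Fc receptor-like gene at 10.5 and 11 CPM in control with no read in either fasted run. With a floor of 3 reads over the fasted group, Fcrl6 was at least 202-fold lower, and the exact 2-sided 95% interval, which is wider, begins at 164-fold. Gfra1, a co-receptor of the RET kinase, stood at 58.0 and 57.3 CPM in control and at 0.325 and 0.316 CPM after 2 days. Gpr56, an adhesion G-protein-coupled receptor of blood progenitors, stood at 61.0 and 63.7 CPM against 0.892 and 0.736 CPM. Tfpi, an inhibitor of the clotting cascade, stood at 14.9 and 14.6 CPM in control, at 27.6 and 27.3 CPM after 1 day and at 0.108 and 0.158 CPM after 2 days. Its 1-day runs lay above the controls and its 2-day runs below them. Fgf13, Dst and Dnajc6 were lower by log2 folds of −6.04, −5.93 and −6.13. On the authors' RPKM, also with 0.1 added, the log2 fold of Dst was −2.13. Its mean RPKM was 0.353 in control and 0.00325 after 2 days, so the added 0.1 sets the size of that value. Among the 15 with the largest log2 fold on the higher side were Hepacam2, an adhesion protein (12.7 to 106 CPM, mean of the runs), Foxf2, a forkhead factor (23.4 to 190 CPM), Nid2, a basement membrane protein (2.85 to 24.1 CPM), and Cbr3, a carbonyl reductase (1.25 to 9.92 CPM). Zfp783, a zinc finger gene, stood at 3.47 and 3.12 CPM in control, at 26.1 and 26.8 CPM after 1 day and at 41.5 CPM in both 2-day runs. The T-cell antigen Cd6 behaved otherwise: it stood at 0.781 and 0.572 CPM in control, at 0.350 and 0.382 CPM after 1 day and at 26.3 and 27.6 CPM after 2 days.

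Among abundant transcripts, Ahnak, a scaffold protein of the cell cortex, stood at 74.8 and 72 CPM in control and at 476 and 474 CPM after 2 days. Reln, the secreted glycoprotein reelin, stood at 107 and 108 CPM in control, at 128 and 125 CPM after 1 day and at 701 and 692 CPM after 2 days. Vim, the intermediate filament vimentin, stood at 408 and 419 CPM against 956 and 949 CPM. On the lower side Pan3, a subunit of the deadenylase that shortens mRNA tails, stood at 734 and 724 CPM in control, at 146 and 141 CPM after 1 day and at 117 and 118 CPM after 2 days. Smarca4, the ATPase of the BAF chromatin remodeller, stood at 939 and 937 CPM against 413 and 411 CPM, and Chd3, an ATPase of the NuRD complex, at 132 and 133 CPM against 19.5 and 19.6 CPM. Ahnak, Reln, Vim, Pan3, Smarca4 and Chd3 were picked for their abundance after their values were seen.

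The leptin receptor itself was hardly read. Lepr had 5 reads in control and 2 after 2 days and did not pass the filter, so its change was not detectable at this depth. Prdm1 stood at 0.174 and 0.239 CPM in control and at 0.297 and 0.263 CPM after 2 days, on 14 and 16 reads. Its ratio of 1.33 has a counting interval of 0.607 to 2.93, which includes both a fall and a rise. Of 24 kept genes of the leptin receptor, STAT3, SOCS and Prdm1 axis, 6 were at least 1.5-fold higher and 0 lower, with a median log2 fold of −0.05. Among all genes 9.52% were higher and 10.1% lower by that fold. The 6 higher genes are known targets, effectors or relatives of the pathway. Socs3, the inhibitor that STAT3 induces, stood at 0.781 and 1.03 CPM in control, at 2.63 and 2.56 CPM after 1 day and at 5.90 and 6.47 CPM after 2 days. Socs2 stood at 8.81 and 10.3 CPM against 25.8 and 23.1 CPM, the kinase gene Pim1 at 34.9 and 35.6 CPM against 68.8 and 67.8 CPM, and Stat3 itself at 48.1 and 46.2 CPM against 79.0 and 74.2 CPM. The phosphatase gene Ptpn1 and Leprotl1, which affects surface leptin receptor, had log2 folds of 0.82 and 0.81. No control run reached the level of a fasted run in the 4 genes given by run, which the rule for a call largely requires.

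Of 33 cytokine receptor genes 7 were higher and 7 lower (21.2% each, against 9.52% and 10.1% of all genes). Lifr, the receptor for leukaemia inhibitory factor, stood at 1.21 and 1.29 CPM in control, at 5.11 and 4.72 CPM after 1 day and at 20.3 and 19.7 CPM after 2 days. Il6ra, the ligand-binding chain of the interleukin 6 receptor, stood at 18.7 and 19.97 CPM in control and at 72.1 and 71.4 CPM after 2 days. Il10ra, a receptor chain for interleukin 10, was also higher (log2 fold 1.13), and Il21r, that for interleukin 21, was lower (−1.48). The list holds Csf1r, a monocyte gene, at 2.06 CPM in control and 5.17 CPM after 2 days. Summed monocyte, macrophage and dendritic markers stood at 59.8 and 52.0 CPM in control and at 97.8 and 94.6 CPM after 2 days, and 7 of their 16 kept genes were higher. The share of these cells in the cytokine receptor values was not tested.

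The Socs3 promoter is shown because STAT3 binds this gene, with capitals for the STAT letters TTCNNNGAA, searched on both strands and present in 6.87% of the matched promoters. The Nr4a1 promoter is shown because Nr4a1 was among the most raised early response genes, with capitals for the half-site TGACG of the CREB family, present on either strand in 32.0% of them. The Socs3 window held 1 match and the Nr4a1 window 4. Of promoters of genes at least 2-fold higher, 21.5% held the half-site and 6.82% the STAT letters. For genes lower at 2-fold but not at 8-fold the shares were 21.4% and 5.35%, and for genes at least 8-fold lower 22.9% and 5.71%. The Socs3 start used lay 681 bases from the start of the deposited gene. A match is a run of letters, not a bound site.
Socs3 promoter, chr11:117969317-117969616, minus strand: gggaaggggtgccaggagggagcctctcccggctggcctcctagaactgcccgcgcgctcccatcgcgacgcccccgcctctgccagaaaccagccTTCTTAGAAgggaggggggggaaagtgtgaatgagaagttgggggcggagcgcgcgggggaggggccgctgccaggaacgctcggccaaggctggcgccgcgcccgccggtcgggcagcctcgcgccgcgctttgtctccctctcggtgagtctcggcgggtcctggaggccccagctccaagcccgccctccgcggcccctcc
Nr4a1 promoter, chr15:101266596-101266895, plus strand: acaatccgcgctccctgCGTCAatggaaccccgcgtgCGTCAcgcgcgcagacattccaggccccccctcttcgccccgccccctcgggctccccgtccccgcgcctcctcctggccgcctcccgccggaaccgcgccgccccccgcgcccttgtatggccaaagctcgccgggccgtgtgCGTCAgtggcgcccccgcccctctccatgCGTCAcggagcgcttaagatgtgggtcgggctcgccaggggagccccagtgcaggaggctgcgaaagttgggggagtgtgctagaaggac

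Early response genes are switched on within minutes by receptor signals and also by cell handling. Of 34, 14 were higher (41.2%), 6 lower (17.6%) and 14 neither, with a median log2 fold of 0.44. Over all genes 9.52% were higher and 10.1% lower. Ier2 stood at 20.6 and 22.6 CPM in control, at 37.2 and 35.4 CPM after 1 day and at 245 and 249 CPM after 2 days. Nr4a1, an orphan nuclear receptor induced by antigen receptor signals, stood at 13.7 and 13.3 CPM in control, at 42.1 and 43.5 CPM after 1 day and at 155 and 154 CPM after 2 days. The AP-1 member Fosl2 stood at 8.68 and 8.11 CPM against 62.0 and 62.2 CPM, and Junb at 67.3 and 73.0 CPM against 157 and 159 CPM. Fos and Fosb went the other way at 2 days. Fos stood at 89.3 and 89.8 CPM in control, at 169 and 173 CPM after 1 day and at 43.2 and 42.5 CPM after 2 days. Fosb stood at 159 and 150 CPM in control, at 342 and 341 CPM after 1 day and at 51.8 and 52.5 CPM after 2 days. In both genes the 2-day runs were the lowest of the 6 and the 1-day runs the highest. Intron reads followed exon reads in Nr4a1 (log2 folds 3.40 and 3.59) and in Fosb (−1.55 and −1.57). Negative regulators of MAP kinase signalling were mostly lower or little changed: of 15 dual-specificity phosphatase and Sprouty genes 4 were lower (26.7%) and 1 higher (6.67%). Spry1 stood at 8.16 and 9.11 CPM against 0.541 and 0.789 CPM and Dusp6 at 10.6 and 11.1 CPM against 3.89 and 3.26 CPM. Dusp5, which acts on nuclear ERK, was the exception, at 23.6 and 23.8 CPM against 71.3 and 69.7 CPM.

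Genes of Wnt signalling held the lowest median of all 55 lists. Of 27 kept genes 15 were lower (55.6%) and 4 higher (14.8%), against 10.1% and 9.52% of all genes, with a median log2 fold of −1.01. That median rests on low genes: it was −0.13 over members with a mean of at least 5 CPM, −0.40 with no filter on low counts and −0.43 with a pseudocount of 1 CPM. Fzd6, a Frizzled receptor, stood at 17.3 and 18.5 CPM in control, at 8.62 and 9.11 CPM after 1 day and at 0.270 and 0.210 CPM after 2 days. Axin2, a feedback inhibitor and common reporter of the pathway, stood at 3.64 and 3.58 CPM against 0.379 and 0.368 CPM. Tcf7, a partner of beta-catenin related to Lef1, stood at 6.07 and 6.92 CPM against 0.946 and 1.05 CPM, a log2 fold of −2.58 on all reads and −1.54 on unique reads. The receptor Fzd7 was among the 4 higher, at 1.48 and 2.36 CPM against 13.6 and 15.2 CPM. Ctnnb1, beta-catenin itself, stood at 547 and 544 CPM in control and at 636 and 612 CPM after 2 days, under 1.5-fold. Genes usually known from T-cell receptor signalling were also low, with 12 of 28 lower (42.9%), 3 higher (10.7%) and a median of −0.64. That median was −0.11 over members with a mean of at least 5 CPM and −0.24 with a pseudocount of 1 CPM. Ubash3a, a phosphatase that restrains that receptor, stood at 38.6 and 38.8 CPM against 0.595 and 0.736 CPM, and the kinase gene Zap70 at 14.5 and 14.4 CPM against 6.87 and 6.58 CPM. Summed T and NK cell markers stood at 10.4 and 9.83 CPM in control and at 7.44 and 7.73 CPM after 2 days, and 6 of their 17 kept genes were lower (35.3%). The share of T cells in the values of these signalling genes was not tested.

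Of 20 homing receptors 11 were higher and 0 lower, with a median log2 fold of 0.74. Among all genes 9.52% were higher and 10.1% lower by the same 1.5-fold rule. S1pr1, the sphingosine-phosphate receptor that draws lymphocytes out of tissue into blood, stood at 24.0 and 24.5 CPM in control, at 50.3 and 49.5 CPM after 1 day and at 75.4 and 72.5 CPM after 2 days. P2ry10, a lysophospholipid receptor, stood at 3.25 and 3.10 CPM against 21.0 and 22.3 CPM, and Ccr7, which guides cells to lymph nodes, at 30.0 and 32.2 CPM against 72.6 and 70.9 CPM. The list holds Ccr2, a monocyte gene, at 1.54 CPM in control and 4.80 CPM after 2 days, beside the monocyte marker sums given above. Antigen presentation went lower in part. In the MHC class II list, 7 of 14 were lower and 1 was higher, against the same shares of all genes. The median log2 fold of that list was −0.59. H2-Eb1 stood at 148 and 151 CPM in control, at 197 and 205 CPM after 1 day and at 53.4 and 51.0 CPM after 2 days. Ciita, the class II transactivator, stood at 46.4 and 20.8 CPM in control and at 24.7 and 7.47 CPM after 2 days, lower in each pair although its run 1 and run 2 levels differ. The log2 fold of Ciita, −1.06, was −0.37 without the first control library, −0.44 without the second 2-day library and −2.15 without the first. Ctss, a lysosomal protease that cuts the invariant chain, was the gene that was higher (log2 fold 0.94). The inhibitory Fc receptor gene Fcgr2b stood at a mean of 26.4 CPM in control and 127 CPM after 2 days.

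**Figure D3:**
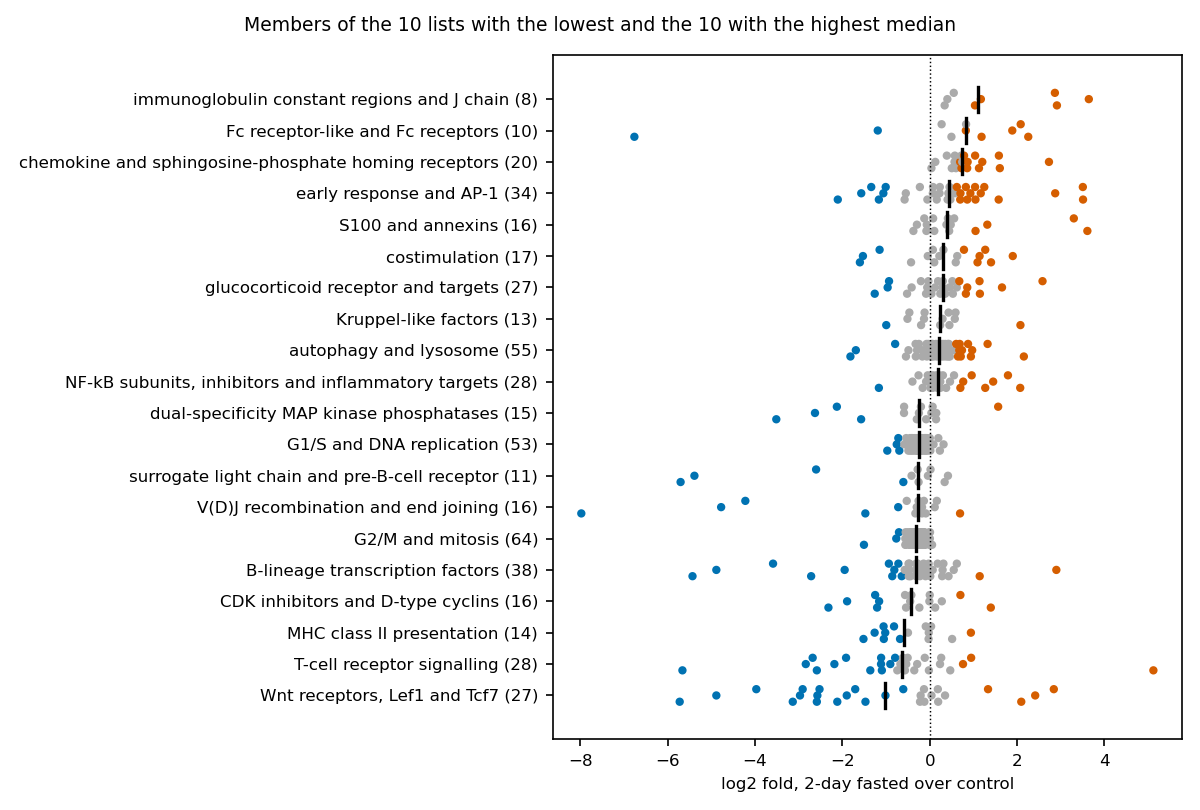
Log2 fold of each kept member (points) and list median (black bar) for the 10 lists with the lowest and the 10 with the highest median out of 55. Orange and blue points are at least 1.5-fold higher and lower in the mean and both runs, the number of kept members is in brackets, and the dotted line is the median of all genes.

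Of 33 genes of insulin, IGF and FoxO signalling 8 were lower (24.2%) and 3 higher (9.09%), with a median log2 fold of −0.24. Over all genes 10.1% were lower and 9.52% higher. Insr, the insulin receptor, stood at 31.5 and 31.2 CPM in control and at 16.6 and 16.5 CPM after 2 days, and Igf1r had a log2 fold of −1.53. Grb10, an adaptor that restrains both receptors, stood at 4.08 and 4.22 CPM against 0.189 and 0.263 CPM. Foxo1 and Foxo3 had log2 folds of −0.31 and −0.41. Of 37 genes of mTORC1 nutrient sensing 1 was higher and 1 lower (2.70% each). The 20 aminoacyl-tRNA synthetases, 74 nuclear-encoded genes of oxidative phosphorylation, 78 cytosolic ribosomal proteins, 58 genes of ribosome biogenesis and 29 of endoplasmic reticulum stress had 0 members past 1.5-fold in either direction, with no test behind these counts. Of 36 genes of the ATF4 amino acid response 7 were higher (19.4%) and 4 lower (11.1%), and Asns, which makes asparagine, was lower (log2 fold −0.73). Of 20 genes of fatty acid synthesis and desaturation 3 were higher and 3 lower, of 38 of fatty acid oxidation and ketone use likewise 3 and 3, and of 31 of cholesterol synthesis and uptake 2 and 1. The medians of these lists were 0.04, −0.09 and −0.05. Scd1, the desaturase that makes oleate, stood at 44.1 and 44.7 CPM in control, at 125 and 122 CPM after 1 day and at 292 and 283 CPM after 2 days. Acacb, whose product inhibits fatty acid entry into mitochondria, stood at 7.98 and 8.23 CPM against 32.6 and 31.7 CPM, and Cpt1a, which carries out that entry, at 103 and 106 CPM against 167 and 172 CPM. Gpam, the first enzyme of triglyceride synthesis, stood at 135 and 136 CPM against 54.6 and 53.1 CPM, and Fads2, a desaturase of polyunsaturated fatty acids, at 5.34 and 5.10 CPM against 1.00 CPM in both fasted runs. Of 55 autophagy and lysosome genes 11 were higher and 3 lower, with a median of 0.22. Ctsh, a lysosomal protease, led them at 15.1 and 15 CPM against 68.2 and 66.4 CPM.

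The median log2 fold was −0.25 over 53 genes of the G1/S step and DNA replication and −0.31 over 64 of G2/M and mitosis, against 0.01 over all genes. Past 1.5-fold, 4 (7.55%) and 3 (4.69%) were lower and 0 higher, shares below the 10.1% of all genes that were lower by that fold. Cdc25b, a phosphatase that lets cells enter mitosis, stood at 361 and 351 CPM in control, at 246 and 251 CPM after 1 day and at 127 and 124 CPM after 2 days. The D-type cyclins split. Ccnd3, the cyclin that B precursors depend on, stood at 202 and 206 CPM against 93.1 and 89.4 CPM, and its kinase Cdk6 at 56.2 and 54.0 CPM against 23.4 and 24.3 CPM. Ccnd1 stood at 208 CPM in both control runs and at 343 and 335 CPM after 2 days. Tsc22d3, a glucocorticoid-induced gene, stood at 93.5 and 95.1 CPM in control, at 195 and 196 CPM after 1 day and at 210 and 206 CPM after 2 days. Of 27 glucocorticoid receptor genes and targets 7 were higher (25.9%) and 3 lower (11.1%), against 9.52% and 10.1% of all genes. Arntl, which encodes the clock activator BMAL1, stood at 84.9 and 81.9 CPM in control, at 49.4 and 48 CPM after 1 day and at 15.6 and 14.1 CPM after 2 days. Per1, a clock repressor that glucocorticoids also induce, stood at 40.3 and 41.4 CPM against 72.5 CPM in both fasted runs. The hour of collection is not given in the labels, and its part in these values was not tested.

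The deposited tables split gene reads into exon and intron reads, and intron reads come largely from unspliced RNA. Among 8238 genes with at least 100 reads of each kind over the 4 libraries, 253 had exon reads at least 2-fold lower and 160 of these also had intron reads at least 2-fold lower. On the higher side the counts were 216 and 117. Of all 8238 genes, 256 had intron reads at least 2-fold lower and 167 at least 2-fold higher. The log2 fold of exon reads was above that of intron reads by at least 1 in 64 genes (0.777%) and below it by at least 1 in 63 (0.765%), whichever of both classes had moved. Ikzf3, which encodes the lymphoid factor Aiolos, differed between the classes. All its reads together stood at 201 and 207 CPM in control and at 252 and 245 CPM after 2 days, under 1.5-fold apart. Its exon reads went from a mean of 179 to 86.9 CPM and its intron reads from 25.5 to 162 CPM, and exons made up 87.5% of its reads in control and 34.7% after 2 days. The 1-day runs held Ikzf3 at 210 CPM in all reads, and at 22.7 and 22.9 CPM in intron reads. Grk5, a receptor kinase gene, was the reverse. Its intron reads stood at a mean of 282 CPM in control and 29.1 CPM after 2 days, while its few exon reads stood at 2.00 and 3.12 CPM. Plcd3, a phospholipase gene, had 9.11% of its control reads in exons, and its exon and intron log2 folds were −3.83 and −5.78. Cxxc5, a zinc finger gene, had equal exon reads (log2 fold −0.02) and fewer intron reads (−3.65). In Dmd, Laptm4b and Wwc2 exon reads were lower by log2 folds of −4.18, −4.78 and −2.37, while intron reads had log2 folds of −0.50, −0.86 and 1.01. Reads of a transcript that starts within or runs through a gene cannot be told apart from its own unspliced RNA in these tables.

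**Figure D4:**
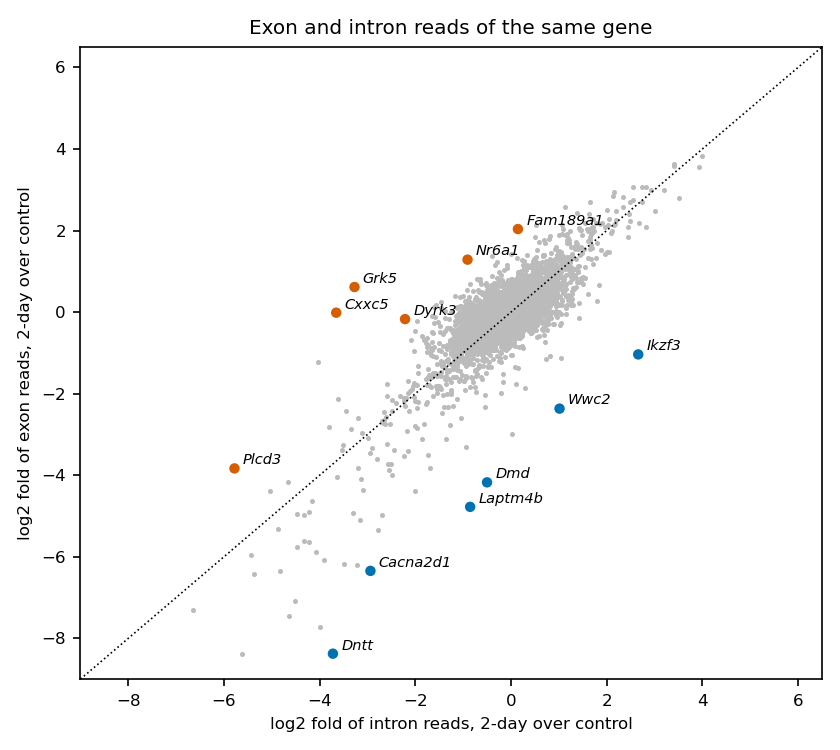
Log2 fold of exon reads against log2 fold of intron reads, 2-day over control, for 8238 genes. Orange and blue points are the 6 genes each way with the largest difference between both folds, and the dotted line marks equal folds; Ikzf3 lies at −1.04 on the exon axis and 2.66 on the intron axis.

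The largest log2 fold of all kept genes lay next to Bmi1, a Polycomb gene that blocks the Ink4a/Arf locus and is known to cooperate with Myc in mouse lymphoma. This region was picked after its values were seen, since provisional genes were outside the naming rule. The provisional gene BC061194 (chr2:18699023-18750413, mm10, plus strand) had 4 reads in control and 5531 after 2 days. It stood at 0.130 and 0.0239 CPM in control, at 0.0701 and 0.0225 CPM after 1 day and at 98.7 and 99.0 CPM after 2 days, a ratio of 1605 with a counting interval of 626 to 5891. Its neighbour Gm13334 (chr2:18694032-18699037, plus strand) shares 15 bases with it and had 0 reads in control and 508 after 2 days, at least 197-fold higher with a floor of 3 reads over the control group, where the exact 2-sided interval begins at 159-fold. Together both genes span 56382 bases, starting 7403 bases past the end of Bmi1 on the same strand. Bmi1 stood at 47.1 CPM in both control runs, at 47.4 and 50.1 CPM after 1 day and at 91.6 and 90.6 CPM after 2 days. Of the genes on either side, Commd3, upstream, stood at 31.2 and 34.0 CPM against 21.3 and 20.1 CPM, and Pip4k2a, 91842 bases downstream on the other strand, at 65.1 and 62.8 CPM against 52.4 and 50.2 CPM. The rise was thus measured over Bmi1 and the stretch past its end and in neither outer neighbour. In BC061194 27.1% of the 2-day reads lay in exons. Cdkn2a, the Ink4a/Arf gene, also looked up after its value was seen, stood at a mean of 11.1 CPM in control and 2.14 CPM after 2 days. Whether the levels of Bmi1 and Cdkn2a are linked in these cells was not tested. Cdkn2a was picked by hand, and no set of Bmi1 targets was compared. Whether the 2-day pool holds another leukaemia clone than the control pool cannot be told apart from an effect of fasting.

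**Figure D5:**
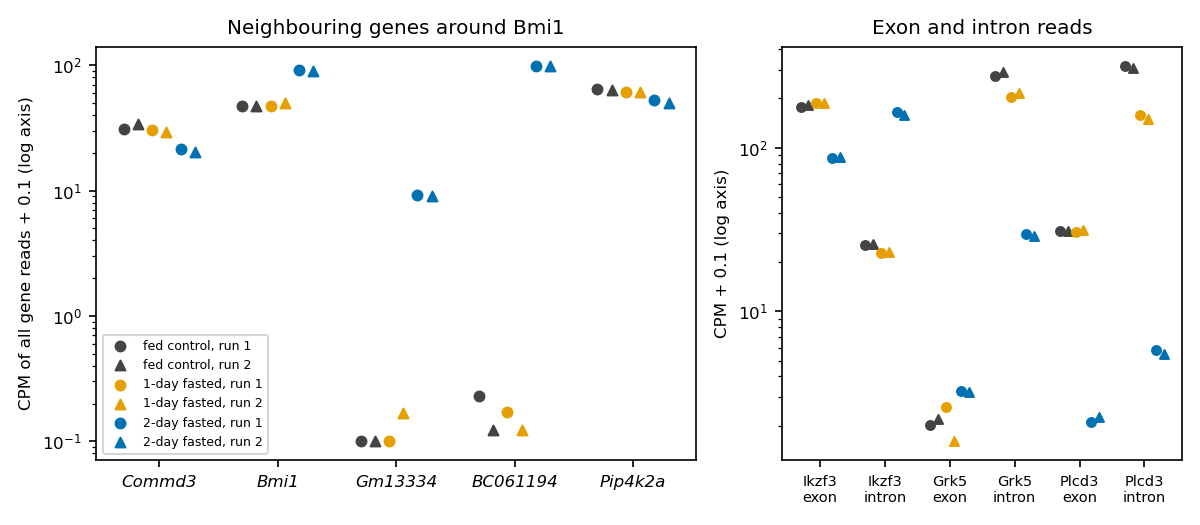
Left: CPM + 0.1 (log axis) of 5 genes in their order along chromosome 2 in each of the 6 libraries, where Gm13334 and BC061194 are near 0.1 in the control and 1-day runs and at about 9 and 99 CPM in the 2-day runs. Right: exon and intron reads of Ikzf3, Grk5 and Plcd3 in the same libraries.

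Other cells in the sort set a limit to some of these values. Summed erythroid markers stood at 1099 and 1108 CPM in control and at 1735 and 1727 CPM after 2 days. Of 19 erythroid genes 5 were at least 1.5-fold higher (26.3%, against 9.52% of all genes), all globins or Alas2. Summed neutrophil markers stood at 1218 and 1242 CPM against 1197 and 1209 CPM. In sorted pools, fewer cells of a type and less RNA per cell cannot be told apart. The chromosomes differed little, with autosomal medians between −0.08 and 0.04, although 48 of 517 X-linked genes were called lower (9.28%) against 3.38% to 6.84% on the autosomes.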

How the data were processed

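RNA of sorted cells was sequenced as single-end reads. The authors aligned reads with TopHat2 to mm10, per the submitters' processing notes, and these sources do not say which counting program and annotation were used, or whether strand was. Per the file headers, the deposited tables hold whole-number counts of total, unique, exon, exon-exon and intron reads per gene, the gene and exon lengths, and the authors' RPKM (reads per kilobase of exon and per fixed number of mapped reads). Replicate 1 and replicate 2 libraries carry different gene tables of 38355 and 38924 genes. They were joined by position (37429 genes), then by name and chromosome (303), and the joined genes held 95.4% to 100.0% of gene reads.

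Total gene reads were filtered with edgeR 4.0.16 (filterByExpr, a count minimum of 10) and scaled by TMM over all 6 libraries, in R 4.3.3. The rest used Python 3.11.15, pandas 2.3.3 and scipy 1.17.1. A call needed a 2-fold (list members 1.5-fold) difference of CPM + 0.1 in the mean and both like-numbered runs. Exon and intron reads took the same scaling, with at least 100 reads of each kind. Ratios of summed reads carry exact binomial 95% intervals, which cover counting error only, since PCR copies were not marked. The steps were tested on simulated data. No test between groups was made, because each group is 1 sample. The genes named are the 15 with the largest log2 fold each way at a mean of at least 5 CPM and 50% exonic reads, provisional genes left out, the leading and central members of each list, and the exceptions said to be chosen after their values were seen. The comparison and the lists were chosen with earlier results of these data known. Alternatives were unique reads, exon reads, RPKM, size factors of DESeq2 1.42.0, plain CPM, other filters, another pseudocount, another join and leaving out each library. Near-identical copies, such as the globin genes, Vpreb1 and Vpreb2 and immunoglobulin segments, may share reads and are uncertain, as are overlapping and antisense genes. A few list members were not analysed here.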

Additional observations from a re-analysis of the deposited data

Results flagged for a closer look

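Reads of mitochondrially encoded genes lie outside the gene comparison, because only the gene table of the replicate 2 libraries lists these genes. They made up 4.30% of gene reads in the 2-day fasted library, 3.08% in the control library and 2.46% in the 1-day fasted library. The 2-day library was thus the highest of the 3 and above the control, with 1 library a group and no test. The 74 nuclear-encoded genes of oxidative phosphorylation had a median log2 fold of 0.02.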

How the results depend on the processing

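The counts depended most on low-level genes. With a mean of at least 5 CPM, 278 genes were at least 2-fold higher and 272 lower, 15 and 65 at least 8-fold, and 243 list memberships were past 1.5-fold, against 383. With a pseudocount of 1 CPM the 2-fold counts were 352 and 490 and the 8-fold counts 11 and 51. The authors' RPKM, with the same 0.1 added, gave 87 genes at least 8-fold lower. The added 0.1 shrinks the folds of genes with low RPKM. With 500 reads of each kind, 28 genes had the higher fold in exon reads and 17 in intron reads. Leaving out each library in turn gave 760 to 882 genes 2-fold higher, 931 to 1004 lower, 30 to 40 and 171 to 190 at 8-fold, 414 to 418 list memberships, and 93 to 124 and 84 to 100 genes in both exon and intron classes; such a count asks for 1 pair of runs fewer to agree. Unique reads, exon reads, size factors, plain CPM, no filter and the other join left each of the 2-fold and 8-fold counts within 1.5 times. Single genes moved more: of 4029 values of 310 named genes 169 moved by over 1.5-fold, 92 of them with the pseudocount of 1 CPM, 45 on RPKM, 13 on exon reads and 6 on unique reads, where Rag1 moved most, from −4.22 to −1.04. On exon reads Grk5 and Rora turned to log2 folds of 0.61 and 0.58, and Ikzf3 went from 0.28 to −1.04. Rora had 8.14% of its control reads in exons. Of 55 list medians over all alternatives, 14 of 715 values changed sign and 3 moved by over 1.5-fold, at most by 1.26 on the log2 scale, for receptor tyrosine kinases with a mean of at least 5 CPM. The Wnt median moved from −1.01 to −0.13 under that filter. No paired analysis was possible because each group is 1 sample, its 2 libraries may be runs of 1 RNA pool, and no result comes from a test. Depth limits genes such as Lepr and Prdm1, and the missing number of mice limits every comparison.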
